A study of Mus musculus with 24 samples.

Results

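Expression in the retinal pigment epithelium (RPE) of RPE Bmal1 WT mice was compared between ZT1 and ZT13, that is, shortly after lights on and shortly after lights off. Zeitgeber time (ZT) counts hours from lights on at ZT0 in a light:dark cycle of 12 h each. The comparison used 6 of the 24 libraries of the series, 3 mice at ZT1 and 3 mice at ZT13, and the 19311 autosomal genes with enough counts in these libraries, out of 48091 autosomal genes and 53700 identifiers in the count table. Of the genes tested, 14086 were protein coding. The same time points in RPE Bmal1 KO mice, 3 mice each, served as a second set of animals. All mice were C57BL/6 and 12 to 16 weeks old, of both sexes, and carried the Rpe-CRE transgenes (Vmd2-rtTA and TetO-cre, in which an RPE promoter drives a doxycycline-dependent activator of Cre) with Bmal1 fl/fl alleles. By the study's methods the RPE Bmal1 KO mice ate doxycycline diet between postnatal days 60 and 74 and RPE Bmal1 WT mice ate regular diet, so Cre-positive mice without induction were the controls, whereas the sample records list doxycycline food for every sample. Groups were therefore formed by the genotype label and the time. The neural retina was removed, RPE was freed by brief sonication from posterior segments that kept choroid and sclera, and 2 isolates of a mouse were pooled into 1 sample for total RNA sequencing after depletion of ribosomal RNA.

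The molecular clock is a transcriptional loop. CLOCK or its paralog NPAS2 pairs with BMAL1, encoded by Arntl, and the pair binds E-box elements to drive transcription of the Per and Cry repressors, of the nuclear receptors Nr1d1 and Nr1d2 (REV-ERB), and of the PAR bZIP factors Dbp, Tef and Hlf, which act at D-box elements. REV-ERB proteins repress Arntl, Npas2, Clock and Nfil3, and NFIL3 opposes the PAR bZIP factors. In peripheral tissues of mice the Per and PAR bZIP transcripts therefore tend to be high around dusk and the Arntl and Npas2 transcripts around dawn. The RPE renews the visual pigment, makes melanin, forms the outer blood-retina barrier and engulfs the tips of photoreceptor outer segments, which in rods peaks soon after light onset. The study also reports a nocturnal peak of this uptake soon after dark onset in RPE Bmal1 WT mice.

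The sequence before the start site is shown for 4 clock genes that were higher in all ZT13 libraries, since these hold the E-box and D-box letters that the loop acts through. RefSeq start sites (GRCm38.p6) were matched for 38 of the 47 clock genes tested, and the 250 bases before each start were searched on both strands. The E-box CACGTG, which reads the same on both strands, was found in 6.02% of all 32851 promoters in the table. When a gene counted if any of its promoters held the motif, the E-box was in 6.86% of all 27025 genes. By that count it was in 8 of the 38 clock genes, namely Bhlhe41, Bnip3, Ciart, Cipc, Cry1, Per1, Tef and Tspan4. Of these 8, 6 had all ZT13 libraries above all ZT1 libraries and 0 the reverse, and of the 30 without it, 6 had ZT13 above and 4 had ZT1 above. Over all genes tested, 4.26% had ZT13 above and 4.91% had ZT1 above. The D-box, searched as TTATGTAA or TTACGTAA, was in 0.931% of promoters (1.1% of genes) and in Per3 and Timeless. TGACGTCA was in 1.55% of promoters (1.77% of genes) and in Hlf, and TAGGTCA was in 2.23% (2.55% of genes) and in Leo1 and Nfil3. Each sequence reads 5′ to 3′ and ends at the base before the start, with the motif in capitals. Per1 lies at chr11:69098769-69098948 on the plus strand, within the GENCODE gene and with 1 exonic base. Ciart lies at chr3:95882229-95882408 on the minus strand, with 23 bases in its first GENCODE exon. Tspan4 lies at chr7:141476200-141476379 on the plus strand, within the gene and outside its exons, and is the second of its start sites in the table. Per3 lies at chr4:151044666-151044885 on the minus strand, upstream of the gene.
Per1: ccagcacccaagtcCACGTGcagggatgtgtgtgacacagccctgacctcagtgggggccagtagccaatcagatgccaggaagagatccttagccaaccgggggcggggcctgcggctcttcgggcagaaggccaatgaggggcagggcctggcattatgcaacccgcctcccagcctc
Ciart: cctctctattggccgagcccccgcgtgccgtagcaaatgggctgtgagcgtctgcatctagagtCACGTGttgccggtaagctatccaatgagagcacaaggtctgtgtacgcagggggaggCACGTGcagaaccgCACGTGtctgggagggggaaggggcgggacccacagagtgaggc
Tspan4: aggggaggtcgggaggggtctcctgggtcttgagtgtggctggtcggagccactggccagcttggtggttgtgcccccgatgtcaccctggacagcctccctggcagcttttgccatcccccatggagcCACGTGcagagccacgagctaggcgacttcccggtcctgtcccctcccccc
Per3: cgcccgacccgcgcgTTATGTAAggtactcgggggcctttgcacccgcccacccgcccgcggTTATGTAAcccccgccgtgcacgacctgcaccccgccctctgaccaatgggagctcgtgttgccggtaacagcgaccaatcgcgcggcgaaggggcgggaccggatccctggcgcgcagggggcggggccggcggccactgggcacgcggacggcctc
Ciart held 3 E-boxes, which began 116, 58 and 44 bases before the start, Per1 held 1 at 166 bases and Tspan4 held 1 at 51 bases. Per3 held 2 D-boxes, at 205 and 158 bases. A match of letters describes the sequence and does not show binding. Other forms of the E-box and sites outside the 250 bases were not searched, so genes counted as without it may hold one elsewhere. The clock genes with and without the E-box were not compared by a test.

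The libraries held 5424024 to 9963047 counts at ZT1 and 5472362 to 10550207 counts at ZT13. The share of mitochondrially encoded genes was 8.22% to 16.4% at ZT1 and 8.55% to 15.02% at ZT13. Xist was at 10439 CPM (counts scaled to library size) in 1 of 3 ZT1 libraries and at 5764 and 7914 CPM in 2 of 3 ZT13 libraries, and at most 349 CPM in the other 3, so the time points differ in the number of females. Sex was not in the model and its part in the results was not tested. RPE transcripts were present in each library, with Rpe65 at 192 to 242 CPM at ZT1 and 110 to 238 CPM at ZT13 and Lrat at 186 to 243 CPM at ZT1 and 208 to 217 CPM at ZT13. Best1, a chloride channel gene of the RPE, was low (1.46 to 2.95 CPM at ZT1 and 0.967 to 1.91 CPM at ZT13). Replicate 2 of ZT13 stood apart, at 86.1 on the first principal component (44.3% of the variance) with the others between -36.4 and 7.67. It was the library richest in transcripts of the neural retina, judged by the rod, cone and inner retina lists.

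Across all genes, edgeR's quasi-likelihood test called 0 of 19311 genes (0%) between ZT1 and ZT13 at a Benjamini-Hochberg adjusted p under 0.05, and its smallest adjusted p was 0.9996. At an unadjusted p under 0.05 it listed 896 genes, 394 higher at ZT1 (2.04%) and 502 lower (2.6%). limma-trend also called 0. DESeq2 called 4 (0.0207%), all of them clock genes: Npas2 was higher at ZT1 (DESeq2 adjusted p = 0.0454), and Per2 (0.00347), Dbp (0.0203) and Per1 (0.0454) were lower. All 3 ZT1 libraries were above all 3 ZT13 libraries in 949 genes (4.91%), and all ZT13 libraries were above all ZT1 libraries in 823 genes (4.26%), which are the backgrounds for the counts of non-overlapping genes below. The median log2 difference, ZT1 minus ZT13, was -0.02 over all genes tested. With 3 mice against 3 an exact permutation test cannot go below p = 0.1.

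The Per genes, which encode the repressors of the loop, were lower at ZT1 in every library. Per2 (chromosome 1 of mm10, 91415982 to 91459324, minus strand) had 73.8, 49.6 and 29.8 CPM at ZT1, against 178, 145 and 225 CPM at ZT13. The highest ZT1 value was well below the lowest ZT13 value, and the log2 difference was -1.84 (SE 0.33, edgeR adjusted p = 0.9996). Per1 (chromosome 11, 69095217 to 69109960, plus strand) had 66.5, 66.4 and 49.3 CPM at ZT1, against 123, 133 and 270 CPM at ZT13, a log2 difference of -1.53 (SE 0.32) that was -1.08 without the high replicate 3 of ZT13. Per3 had 202, 275 and 116 CPM at ZT1, against 355, 338 and 464 CPM at ZT13, with a log2 difference of -0.96 (SE 0.31). Of the 2 Cry genes, partners of PER in the repressor complex, Cry2 separated the time points and Cry1 did not. Cry2 had 79.8, 73.8 and 52 CPM at ZT1, against 90.4, 104 and 112 CPM at ZT13 (log2 difference -0.57, SE 0.20), and it overlaps a gene on the opposite strand. Cry1 had 28.5, 12.9 and 18.1 CPM at ZT1, against 21.5, 23.3 and 22.4 CPM at ZT13, so that its ZT1 values lay on both sides of the narrow ZT13 range (log2 difference -0.17, SE 0.29).

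Most other repressors of the loop also had lower transcript levels at ZT1. Ciart, a repressor of CLOCK and BMAL1 with 3 E-boxes in the sequence above, had 8.62, 7.8 and 6.52 CPM at ZT1, against 15.7, 18 and 24.6 CPM at ZT13. Each ZT13 value was well above each ZT1 value, with a log2 difference of -1.35 (SE 0.27, edgeR adjusted p = 0.9996). Nr1d2 had 132, 153 and 79.6 CPM at ZT1, against 238, 213 and 258 CPM at ZT13 (log2 difference -0.96, SE 0.25). Nr1d1 was the more variable of the REV-ERB pair, with 53.2, 293 and 185 CPM at ZT1, against 323, 410 and 365 CPM at ZT13, and its log2 difference of -1.05 (SE 0.50) was -0.62 without replicate 1 and -1.62 without replicate 2 of ZT1. Nr1d1 shares its locus with Thra on the opposite strand, and whether the counting used strand is not given in the sources used here, which leaves its counts uncertain. Bhlhe41, a basic helix-loop-helix repressor of E-box transcription, had 128, 140 and 105 CPM at ZT1, against 158, 189 and 173 CPM at ZT13 (log2 difference -0.48, SE 0.18), whereas its paralog Bhlhe40 overlapped between the time points, with 218, 258 and 235 CPM at ZT1, against 287, 222 and 353 CPM at ZT13.

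Among the PAR bZIP factors, Dbp and Tef were lower at ZT1 in every library and Hlf was not. Dbp (chromosome 7, 45705088 to 45710203, plus strand) had 30.4, 47.9 and 18.3 CPM at ZT1, against 95.6, 87.8 and 213 CPM at ZT13. This was the largest log2 difference of the clock genes tested (-2.04, SE 0.44), it was -1.51 without replicate 3 of ZT13, and Dbp shares bases with Sphk2, which is read from the other strand. Tef had 275, 251 and 147 CPM at ZT1, against 466, 416 and 571 CPM at ZT13 (log2 difference -1.11, SE 0.27). Hlf had 527, 469 and 717 CPM at ZT1, against 608, 679 and 529 CPM at ZT13, which overlap, with a log2 difference of -0.08 (SE 0.22). Of the genes known as clock outputs, Cys1, a protein of the primary cilium, had 35.8, 15.4 and 22.2 CPM at ZT1, against 62.5, 44.9 and 55.8 CPM at ZT13 (log2 difference -1.15, SE 0.30). Wee1, a cell cycle kinase, had 30.4, 24.9 and 27.1 CPM at ZT1, against 39.5, 33.1 and 43.2 CPM at ZT13 (log2 difference -0.49). The ubiquitin protease Usp2 overlapped, with 97.4, 46.6 and 40.3 CPM at ZT1, against 134, 87.1 and 135 CPM at ZT13 (log2 difference -0.95, and -1.45 without replicate 1 of ZT1). Tspan4, a tetraspanin, had 13.3, 9.91 and 16.7 CPM at ZT1, against 24, 24.6 and 22.8 CPM at ZT13 (log2 difference -0.83, SE 0.25), and it overlaps Chid1 on the opposite strand.

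In the opposite limb of the loop, Npas2, Nfil3 and Clock had all ZT1 libraries above all ZT13 libraries, and Arntl overlapped. Npas2 (chromosome 1, 39193731 to 39363236, plus strand), the paralog of Clock, had 20, 22.1 and 52.3 CPM at ZT1, against 9.09, 8.48 and 8.65 CPM at ZT13. The ZT13 values were nearly equal and each ZT1 value was above all of them, with a log2 difference of 1.85 (SE 0.39, edgeR adjusted p = 0.9996) that was 1.27 without replicate 3 of ZT1. Nfil3, the repressor at D-boxes, had 21.5, 7.8 and 10.7 CPM at ZT1, against 4.64, 3.39 and 6.77 CPM at ZT13 (log2 difference 1.42, SE 0.44, and 0.89 without replicate 1 of ZT1). Clock had 230, 236 and 370 CPM at ZT1, against 191, 228 and 147 CPM at ZT13 (log2 difference 0.56, SE 0.25, and 0.31 without replicate 3 of ZT1). Arntl, the gene targeted in the knockout, had 57.4, 56.7 and 93.5 CPM at ZT1, against 23.8, 77.8 and 14.9 CPM at ZT13. Its time points overlapped through replicate 2 of ZT13 alone, and the log2 difference of 0.84 (SE 0.55) was 1.84 without that library, but 0.45 without replicate 3 of ZT13 and 0.57 without replicate 3 of ZT1. Rorb, a nuclear receptor that is abundant in the neural retina, was also set by that library, with 68, 59.5 and 125 CPM at ZT1, against 105, 545 and 77.3 CPM at ZT13, and its log2 difference of -1.53 was -0.12 without it. Fbxl21, an F-box protein that acts on CRY, had 3.25, 6.12 and 6.16 CPM at ZT1, against 2.9, 2.97 and 2.76 CPM at ZT13, and Dtx4, a ubiquitin ligase of the Deltex family, had 44.4, 55.3 and 42.8 CPM at ZT1, against 34.6, 29.3 and 25.1 CPM at ZT13 (log2 differences 0.84 and 0.68).

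**Figure D1:**
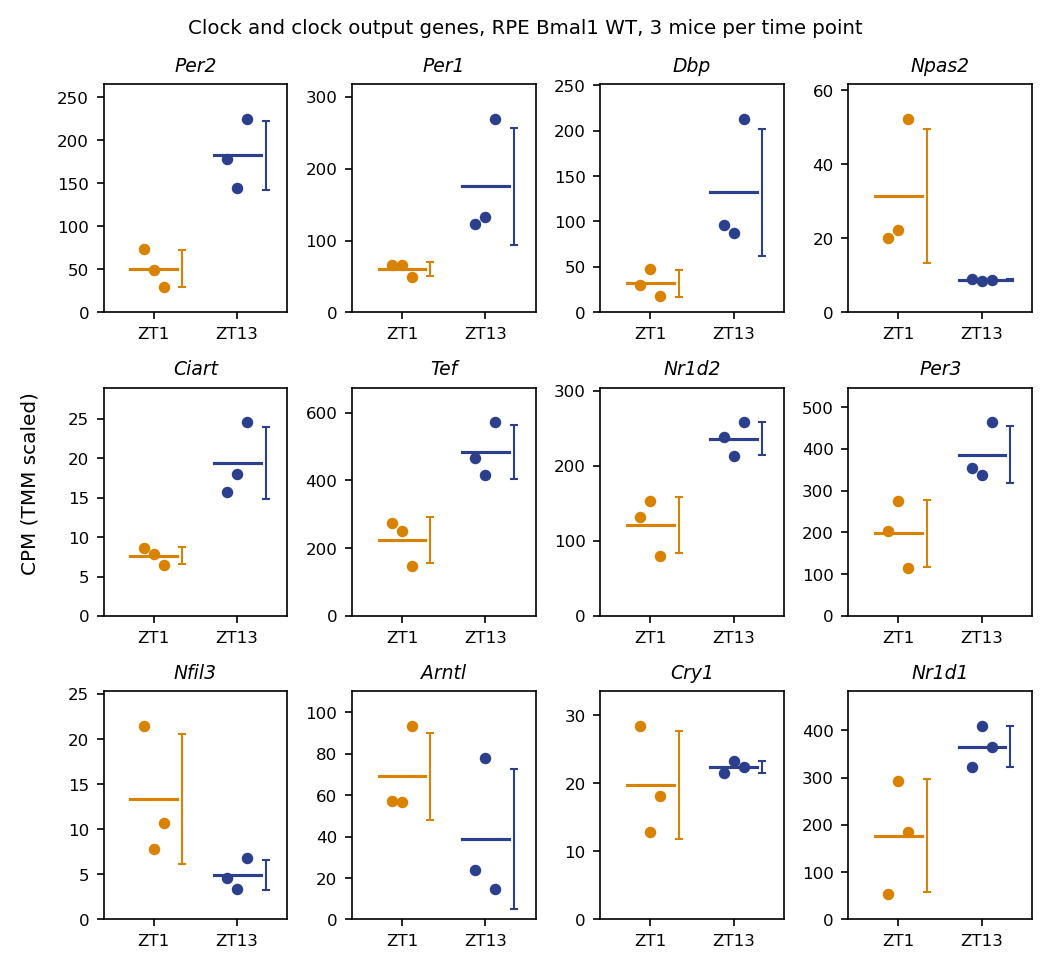
CPM of 12 clock and clock output genes in RPE Bmal1 WT, on the y axis, by time point on the x axis. Points are mice, horizontal lines are means and bars beside them are SD (n = 3 each). The ZT1 points lie below the ZT13 points for Per2, Per1, Dbp, Ciart, Tef, Nr1d2, Per3 and Nr1d1 and above them for Npas2 and Nfil3, while those of Arntl and Cry1 overlap.

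Of the 24 core clock genes tested, 7 were higher and 17 lower at ZT1, with a median log2 difference of -0.23. ZT13 was above ZT1 in all libraries for 8 of them and ZT1 above ZT13 for 3, against 4.26% and 4.91% of all genes. Of the 23 clock output genes tested, 7 were higher and 16 lower, with a median of -0.35, 6 with ZT13 above and 2 with ZT1 above. At an unadjusted edgeR p under 0.05, 1 core gene was higher and 7 were lower at ZT1, and 2 output genes were higher and 6 lower, and 0 of either list passed after adjustment. The core genes that did not separate the time points include the kinase gene Csnk1d (log2 difference -0.11), whose product phosphorylates PER. Arntl, Npas2, Ciart, Bhlhe40, Bhlhe41, Tef, Wee1 and Usp2 also overlap a gene or predicted gene of the other strand and are uncertain in the same way.

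The same contrast was made in RPE Bmal1 KO, whose 6 libraries share no mouse with the comparison above. There edgeR called 0 of 20372 genes (0%), with 644 at an unadjusted p under 0.05, limma-trend called 0 and DESeq2 called 33. In RPE Bmal1 KO all ZT1 libraries were above all ZT13 libraries in 649 genes (3.19%) and below them in 850 (4.17%). Per2 had log2 differences of -1.84 (SE 0.33) in RPE Bmal1 WT and -2.07 (SE 0.29) in RPE Bmal1 KO, where it had 38, 31.2 and 62 CPM at ZT1, against 145, 202 and 206 CPM at ZT13. Npas2 had 1.85 (SE 0.39) in RPE Bmal1 WT and 1.41 (SE 0.31) in RPE Bmal1 KO, Dbp had -2.04 (SE 0.44) in RPE Bmal1 WT and -1.70 (SE 0.38) in RPE Bmal1 KO, and Tef had -1.11 (SE 0.27) in RPE Bmal1 WT and -1.46 (SE 0.24) in RPE Bmal1 KO, with no overlap in either. Per1 had -1.53 (SE 0.32) in RPE Bmal1 WT and -0.73 (SE 0.34) in RPE Bmal1 KO, where the time points overlapped, with 63.4, 118 and 126 CPM at ZT1, against 104, 194 and 214 CPM at ZT13. Arntl separated the time points in RPE Bmal1 KO, with 109, 111 and 113 CPM at ZT1, against 24.9, 52.6 and 37.3 CPM at ZT13, and its log2 differences were 0.84 (SE 0.55) in RPE Bmal1 WT and 1.53 (SE 0.27) in RPE Bmal1 KO. A count over the whole gene is no check of the deletion of an exon.

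The difference between the genotypes was itself tested over the 12 libraries, and edgeR called 0 of 21316 genes (0%), with 879 at an unadjusted p under 0.05 and a smallest adjusted p of 0.9998. DESeq2 and limma-trend called 0 as well. The contrast, RPE Bmal1 WT minus RPE Bmal1 KO, was 0.24 (SE 0.48) for Per2, -0.80 (SE 0.52) for Per1, -0.77 (SE 0.36) for Ciart and 0.42 (SE 0.52) for Npas2. With these standard errors the genotypes are not shown to behave alike. With both genotypes in 1 fit, a test added after the data were seen, edgeR called 1 of 21316 genes (0.00469%), which was Per2 (log2 difference -1.96, SE 0.24, adjusted p = 0.0339), with 797 genes at an unadjusted p under 0.05. DESeq2 called 46 and limma-trend 6 in that fit, edgeR called 0 when replicate numbers entered as a block, and fits that left out single libraries gave 0 to 5 calls. Of the 1750 genes without overlap in RPE Bmal1 WT that were also tested in RPE Bmal1 KO, 108 had the same time point above in RPE Bmal1 KO and 58 the opposite one.

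**Figure D2:**
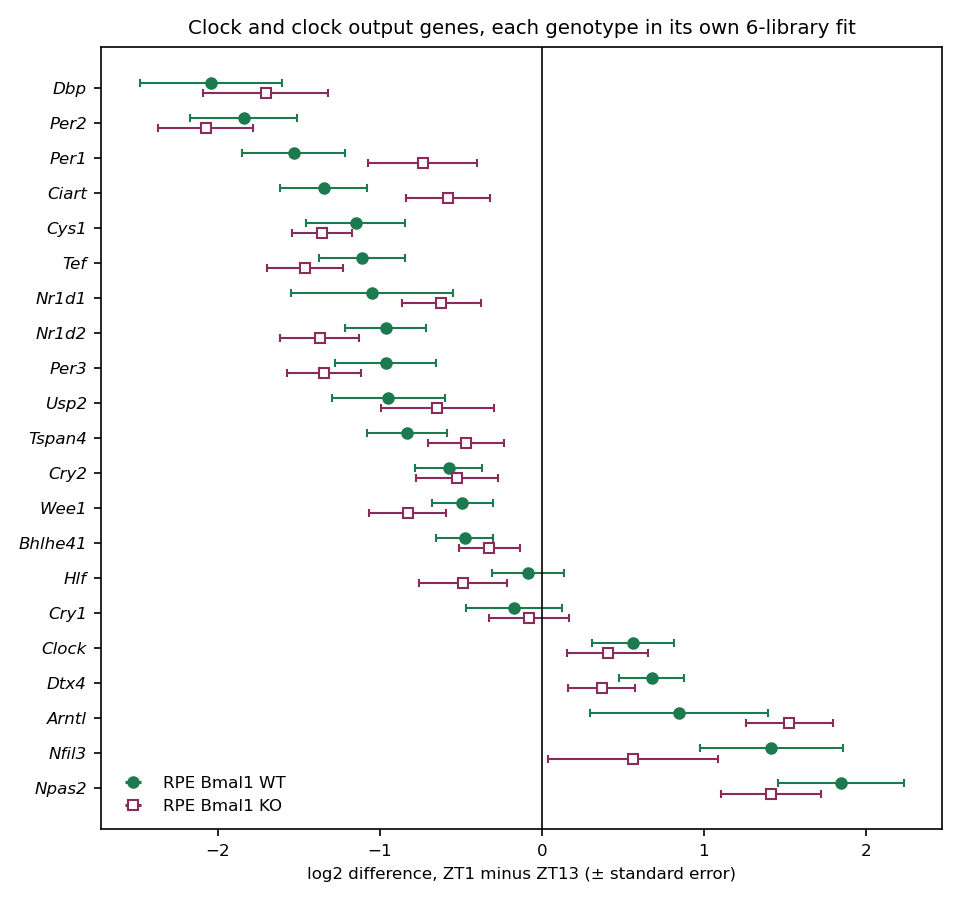
Log2 difference, ZT1 minus ZT13, on the x axis for 21 clock and clock output genes, with filled circles for RPE Bmal1 WT and open squares for RPE Bmal1 KO, bars showing SE from edgeR, n = 3 mice per time point. Dbp lies at -2.04 in RPE Bmal1 WT, against -1.70 in RPE Bmal1 KO at the top and Npas2 at 1.85 in RPE Bmal1 WT, against 1.41 in RPE Bmal1 KO at the bottom.

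Outside the clock, the genes named by rule were the protein-coding ones of smallest unadjusted p without overlap, none of which passed the adjusted threshold. Since that p and the absence of overlap chose them, their values are a description. Higher at ZT1 were 2 genes of the Slc4 transporter family. Slc4a11 had 114, 97.7 and 150 CPM at ZT1, against 59.4, 55.8 and 66.9 CPM at ZT13 (log2 difference 0.99, SE 0.20). In the independent RPE Bmal1 KO mice it also separated the time points, with 133, 171 and 112 CPM at ZT1, against 57, 81.8 and 54.2 CPM at ZT13. Slc4a5, a sodium bicarbonate cotransporter, had 219, 294 and 242 CPM at ZT1, against 130, 148 and 160 CPM at ZT13 (log2 difference 0.78), and its difference in RPE Bmal1 KO was -0.02. Cyp26a1, which degrades retinoic acid, had 3.25, 6.54 and 4.58 CPM at ZT1, against 0.967, 1.27 and 1.25 CPM at ZT13. Its log2 differences were 2.01 in RPE Bmal1 WT, against 1.503 in RPE Bmal1 KO, without overlap in either. Tlr5, the flagellin receptor, had 44.4, 61 and 86.3 CPM at ZT1, against 31.9, 21 and 29.8 CPM at ZT13, with log2 differences of 1.21 in RPE Bmal1 WT, against 0.66 in RPE Bmal1 KO. For the cyclic GMP phosphodiesterase Pde5a, the kinase Frk, the protease Tmprss11g and the secreted phospholipase Pla2g2e the log2 differences were 0.79, 0.93, 0.82 and 1.92 in RPE Bmal1 WT and -0.09, -0.01, 0.12 and 0.31 in RPE Bmal1 KO. The serine protease Tmprss3 had 2.6, 1.9 and 2.47 CPM at ZT1, against 0, 0.212 and 0.251 CPM at ZT13, and did not pass the filter on low counts in RPE Bmal1 KO.

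Lower at ZT1 by the same rule were the 5 clock genes Per2, Ciart, Per1, Dbp and Tef and other genes, of which 4 are described here. Ptgs2, an inducible cyclooxygenase, had 6.34, 5.7 and 6.69 CPM at ZT1, against 15.7, 13.8 and 12.8 CPM at ZT13. Its log2 differences were -1.17 in RPE Bmal1 WT, against -1.55 in RPE Bmal1 KO, where ZT13 was also above in all libraries. Cyp2a5, a cytochrome P450 gene, had 5.04, 5.48 and 4.05 CPM at ZT1, against 13.9, 15.5 and 8.02 CPM at ZT13 (log2 differences -1.35 in RPE Bmal1 WT, against -2.68 in RPE Bmal1 KO). Pfkfb3 makes the allosteric activator of phosphofructokinase in glycolysis. It had 53.8, 50.2 and 52.8 CPM at ZT1, against 88, 79.3 and 79.7 CPM at ZT13, the tightest groups of these genes, with a log2 difference of -0.65 (SE 0.15) in RPE Bmal1 WT, against -0.53 in RPE Bmal1 KO. Plk5, a polo-like kinase gene, had 19, 15.8 and 12.5 CPM at ZT1, against 26.5, 43.7 and 30.8 CPM at ZT13, and its difference in RPE Bmal1 KO was -0.10.

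The genes of RPE function named next, other than those of outer segment uptake, Drd2 and Dio2, were chosen after their values were seen, from lists that cover each function. Of 13 visual cycle genes, which regenerate the chromophore, 12 were higher at ZT1 with a median log2 difference of 0.33, and 3 had ZT1 above in all libraries. The mean log2 CPM of the list was higher by 0.29 at ZT1, or by 0.19 without replicate 1 of ZT13. In RPE Bmal1 KO the median of the 12 genes tested was -0.11, with 0 having ZT1 above and 3 having ZT13 above. Rgr, the opsin of the RPE that supports the visual cycle in light, had 1575, 1995 and 1418 CPM at ZT1, against 1050.3, 1057 and 1168 CPM at ZT13. In RPE Bmal1 KO the order was the reverse, with 1168, 1354 and 1042 CPM at ZT1, against 1714, 1574 and 1764 CPM at ZT13. The log2 difference was 0.61 in RPE Bmal1 WT, against -0.50 in RPE Bmal1 KO, and that of RPE Bmal1 WT minus RPE Bmal1 KO was 1.11 (SE 0.28, edgeR adjusted p = 0.9998). Dhrs3, a retinal reductase, had 143, 170 and 162 CPM at ZT1, against 97.5, 103 and 131 CPM at ZT13, while the isomerase Rpe65 overlapped, with 230, 192 and 242 CPM at ZT1, against 110, 238 and 205 CPM at ZT13. The log2 difference of Rpe65 was 0.27, but 0.00048 without replicate 1 of ZT13 and 0.49 without replicate 2 of ZT13.

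Of 15 melanin synthesis genes, 13 were higher at ZT1, with a median log2 difference of 0.31, and 7 had ZT1 above in all libraries and 1 ZT13 above. Tyr, the tyrosinase that starts the pathway, had 165, 177 and 200 CPM at ZT1, against 131, 135 and 113 CPM at ZT13 (log2 difference 0.51, SE 0.17). Tyrp1, a later enzyme, had 562, 473 and 733 CPM at ZT1, against 409, 364 and 394 CPM at ZT13 (0.60, SE 0.21). Slc45a2, a transporter of the melanosome, had 35.6, 35 and 46.3 CPM at ZT1, against 29, 24.6 and 28.6 CPM at ZT13 (0.51, SE 0.19). The median of the list in RPE Bmal1 KO was 0.16, and of these genes Tyr had a difference of 0.03 there. In RPE Bmal1 KO only 1 of the 15 genes had ZT1 above in all libraries, and 0 had ZT13 above. That gene was Rab38, a trafficking protein of melanosomes, which also had ZT1 above in RPE Bmal1 WT. Its log2 differences were 0.71 in RPE Bmal1 WT, against 0.73 in RPE Bmal1 KO. Choroidal melanocytes make the same transcripts. A melanocyte marker list of 9 genes, 4 of them shared with the melanin list, had 9 members higher at ZT1 and a summed level of 1517 to 2213 CPM at ZT1, against 1379 to 1561 CPM at ZT13, and its part in the melanin values was not tested. In these bulk samples fewer cells of a type and less RNA per cell cannot be told apart.

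The genes of outer segment uptake showed small differences. ZT13 lies close to the nocturnal peak of uptake that the study reports, so ZT1 against ZT13 does not set a peak against a trough. Of 27 tested, 20 were higher and 7 lower at ZT1 with a median of 0.07 and a range of -0.48 to 0.54 on the log2 scale, and 3 had ZT1 above and 2 ZT13 above in all libraries. Mertk, the receptor that triggers engulfment, had 38.5, 47.9 and 47.4 CPM at ZT1, against 35.8, 41.3 and 48.1 CPM at ZT13 (log2 difference 0.09, SE 0.19), and Itgb5, of the integrin that binds the tips, had 67.6, 58.2 and 63.1 CPM at ZT1, against 58, 45.4 and 62.6 CPM at ZT13 (0.19, SE 0.18, and 0.059 without replicate 2 of ZT13). Both overlapped between the time points. Mfge8, the bridging ligand of that integrin, was at the low end of the list, with 54.3, 54 and 51.3 CPM at ZT1, against 70.8, 85.9 and 65.3 CPM at ZT13 (-0.48, SE 0.17). Myo7a, the motor that moves phagosomes and melanosomes, was at the high end, with 67.3, 59.3 and 55.3 CPM at ZT1, against 38.5, 33.5 and 52.8 CPM at ZT13 (0.54, SE 0.21). Itpr1, a calcium release channel, had 179, 162 and 171 CPM at ZT1, against 141, 134 and 143 CPM at ZT13 (0.29), Itgav had 274, 270 and 385 CPM at ZT1, against 265, 256 and 253 CPM at ZT13 (0.26, and 0.079 without replicate 3 of ZT1), and Elmo1, an activator of RAC, had 36.7, 43.2 and 42.4 CPM at ZT1, against 49.7, 64.2 and 45.3 CPM at ZT13 (-0.38, and -0.22 without replicate 2 of ZT13). The TAM kinase Axl and the TAM ligand Pros1 overlapped between the time points, with log2 differences of -0.19 and 0.12. Of 26 genes of phagosome maturation and the LC3 pathway 13 were higher and 13 lower (median 0.01). Drd2, the dopamine receptor, had 0.813, 1.05 and 3.17 CPM at ZT1, against 2.71, 12.9 and 1.25 CPM at ZT13, and its log2 difference of -1.69 was -0.18 without replicate 2 of ZT13 and -2.54 without replicate 3 of ZT1. Dio2, which activates thyroid hormone, had 17.9, 9.07 and 60.2 CPM at ZT1, against 18.2, 21.6 and 11.7 CPM at ZT13, a log2 difference of 0.77 that was -0.33 without replicate 3 of ZT1, and both genes overlapped.

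More epithelial and matrix genes had higher than lower values at ZT1 in RPE Bmal1 WT. Of 21 epithelial junction genes 16 were higher, 4 of them without overlap and 0 the reverse. Transcripts of cornea and epidermis were also abundant in these libraries, and their part in these values was not tested. Cdh3, the P-cadherin of RPE junctions, had 89.3, 98.9 and 51.4 CPM at ZT1, against 47.8, 22.7 and 21.4 CPM at ZT13 (log2 difference 1.38, SE 0.37), and -0.03 in RPE Bmal1 KO. Gja1, a gap junction protein, had 606, 613 and 766 CPM at ZT1, against 535, 439 and 517 CPM at ZT13 (0.41). In the list of angiogenic factors and Bruch's membrane, 14 of 23 were higher and 3 separated the time points, all with ZT1 above. Loxl1, which cross-links elastin, had 52.2, 53.4 and 70.8 CPM at ZT1, against 39.5, 25.2 and 39.6 CPM at ZT13 (0.75, SE 0.23). Of the complement list 12 of 17 were higher, and 3 separated the time points, all with ZT1 above. The median log2 differences of the junction, angiogenic and complement lists were 0.20, 0.14 and 0.16 in RPE Bmal1 WT. In RPE Bmal1 KO they were 0.01, -0.01 and -0.13, with 1, 4 and 2 genes having ZT1 above and 0 the reverse. Of the stromal fibroblast markers, 20 of 21 were also higher at ZT1 in RPE Bmal1 WT. Their summed level was 2800.2 to 7339.9 CPM at ZT1, the highest in replicate 3, against 2879.6 to 3807 CPM at ZT13. The difference in their mean log2 CPM was 0.34, but -0.06 without replicate 3 of ZT1, and their part was not tested. Without replicate 3 of ZT1 the log2 difference was 0.60 for Loxl1. Among 26 transport genes 17 were higher and 9 lower, and the taurine transporter Slc6a6 had 1155, 1093 and 974 CPM at ZT1, against 1484, 1731 and 1537 CPM at ZT13 (-0.56), also with ZT13 above in RPE Bmal1 KO (-0.44).

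**Figure D3:**
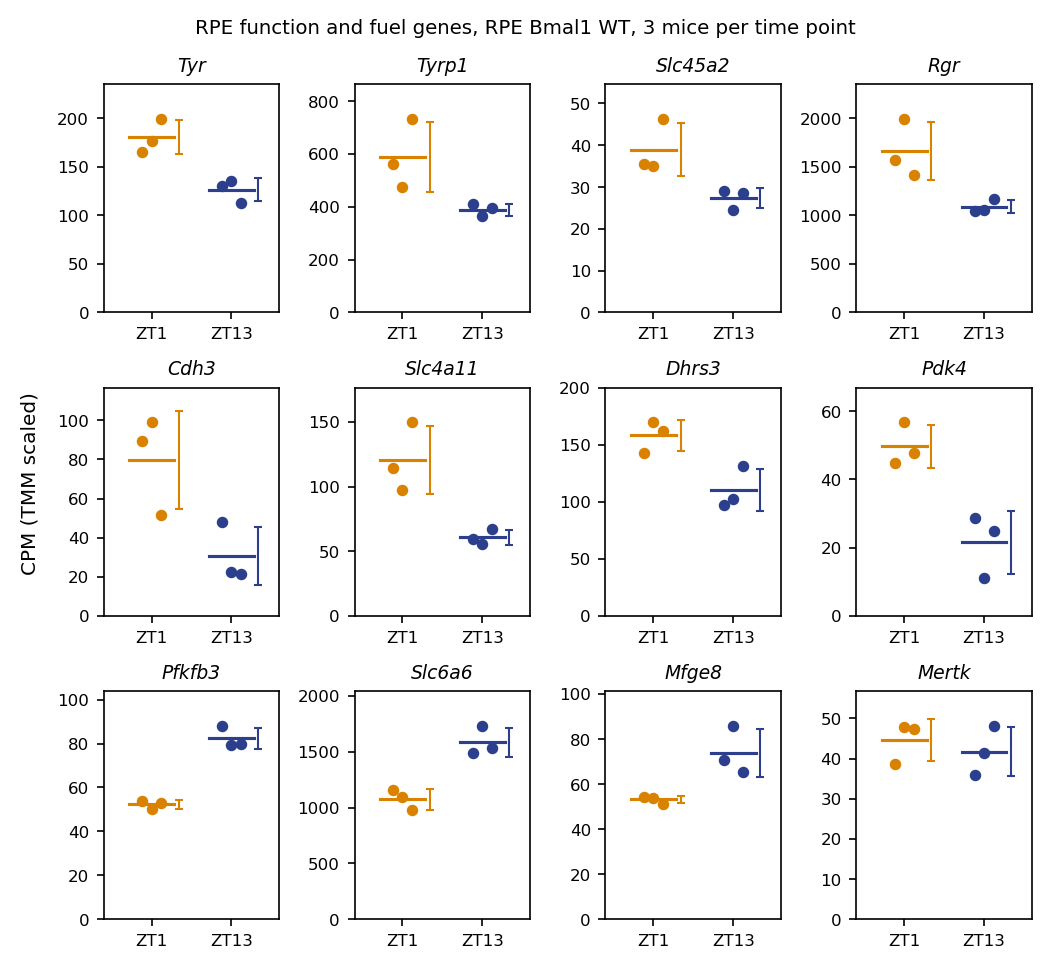
CPM of 12 genes of RPE function and fuel use in RPE Bmal1 WT, on the y axis, by time point on the x axis. Points are mice, lines are means and bars are SD (n = 3 each). The ZT1 points lie above the ZT13 points for Tyr, Tyrp1, Slc45a2, Rgr, Cdh3, Slc4a11, Dhrs3 and Pdk4 and below them for Pfkfb3, Slc6a6 and Mfge8, and those of Mertk overlap.

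Genes of fuel choice, also named after their values were seen, differed in sign. Pdk4, which blocks the entry of pyruvate into the mitochondrial cycle, had 44.7, 56.7 and 47.7 CPM at ZT1, against 28.6, 11 and 24.9 CPM at ZT13 (log2 difference 1.20, SE 0.33). Of 22 genes in the glycolysis list, which includes Pdk4, 2 were higher and 20 lower at ZT1 with a median of -0.38 (-0.17 in RPE Bmal1 KO), 5 with ZT13 above and 1 with ZT1 above. Pfkl, the liver isoform of phosphofructokinase, had 35, 39.7 and 28.9 CPM at ZT1, against 40.2, 71.9 and 56.3 CPM at ZT13 (-0.70). Eno1 had 26.8, 34.6 and 34.5 CPM at ZT1, against 44.7, 118 and 40.6 CPM at ZT13. The high value was in replicate 2 of ZT13, the library rich in photoreceptor transcripts, without which its log2 difference of -1.08 was -0.42 and that of Pfkl -0.49. Of 23 cholesterol synthesis genes 20 were higher at ZT1 with a median of 0.24, and 1 separated the time points, namely Hmgcs1, the cytosolic synthase, with 180, 223 and 232 CPM at ZT1, against 147, 145 and 172 CPM at ZT13.

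Lists of signals that could reset the clock held members on both sides of 0, and 0 to 4 of each list separated the time points. The cAMP and CREB list was one-sided, with 2 of 19 genes higher and 17 lower at ZT1 (median -0.20). In it 1 gene had ZT1 above and 1 ZT13 above. Its mean log2 CPM was 5.58 in replicate 2 of ZT13, the library rich in transcripts of the neural retina, and 4.71 to 5.09 in the others. Of 16 glucocorticoid-responsive genes 4 were higher and 12 lower at ZT1 (median -0.28). In this list 2 genes had ZT1 above in all libraries, Pdk4 (log2 difference 1.20) and Errfi1 (0.37), and 2 had ZT13 above, Per1 and Fkbp5. Fkbp5, named after its values were seen and a chaperone of the glucocorticoid receptor, had 34.6, 26.8 and 28 CPM at ZT1, against 50.7, 43.2 and 71.3 CPM at ZT13 (log2 difference -0.89, SE 0.23, and -1.46 in RPE Bmal1 KO). Of 28 immediate early genes 13 were higher and 15 lower, and 0 separated the time points or had an unadjusted edgeR p under 0.05. The heat shock list (23 genes, median -0.12), the unfolded protein response (24 genes, 0.12) and the NRF2 antioxidant list (24 genes, 0.07) had 2, 2 and 0 members without overlap.

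**Figure D4:**
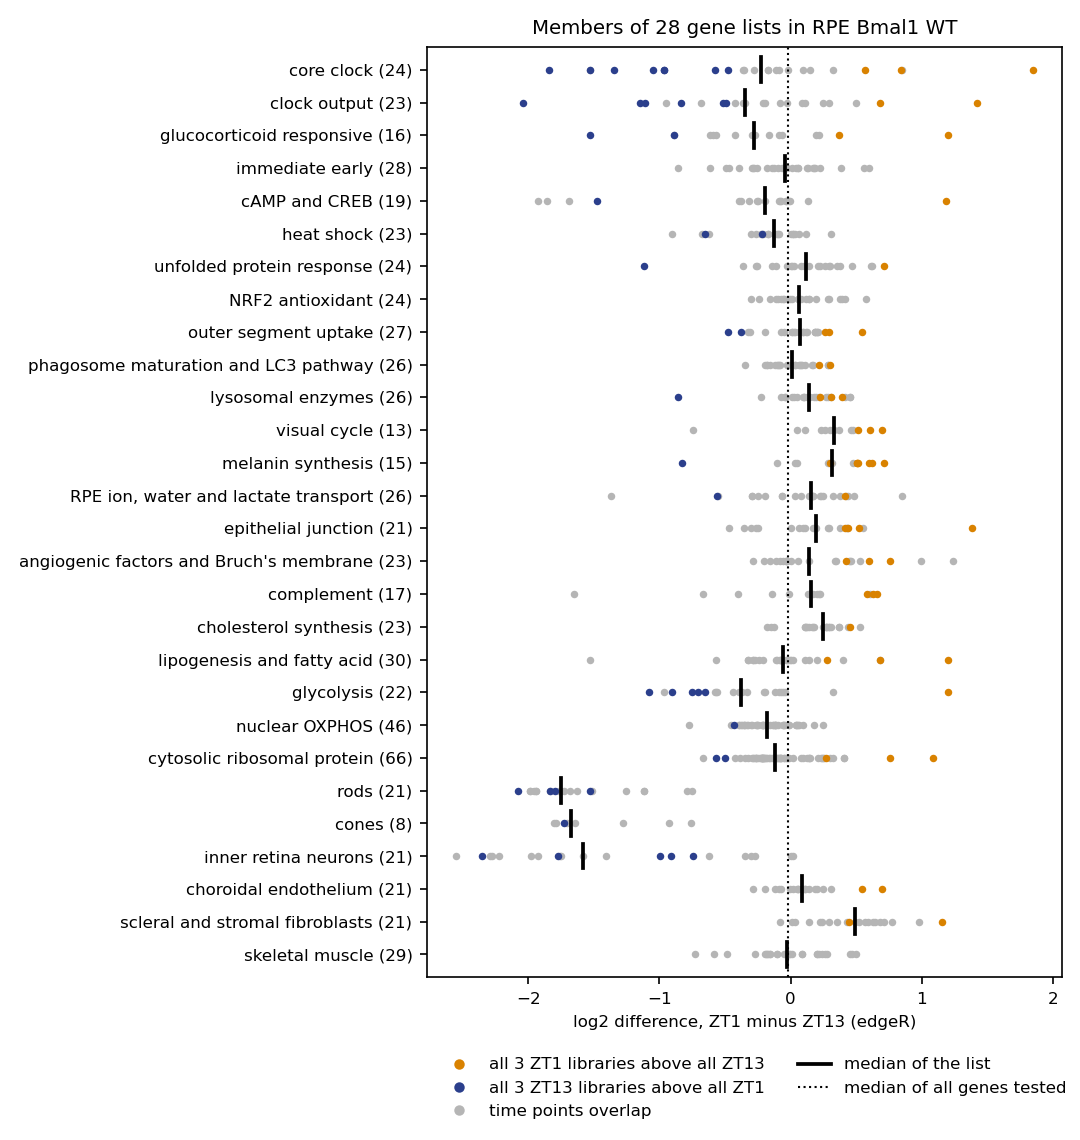
Log2 difference, ZT1 minus ZT13, from edgeR on the x axis for the members of 28 gene lists in RPE Bmal1 WT (number tested in parentheses). Orange points have all ZT1 libraries above, blue points all ZT13 libraries above and grey points overlap, black bars are list medians and the dotted line is the median of all genes. The rod list lies at a median of -1.75 and the core clock list at -0.23 with members on both sides.

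Markers of rods, cones and inner retina neurons had lower values at ZT1, and 1 library of ZT13 decided most of the difference. The 21 rod genes had a summed level of 1976 to 4198 CPM at ZT1, against 3339.7 to 19708 CPM at ZT13, and 21 of 21 were lower at ZT1, with 4 that did not overlap. Cnga1, a subunit of the rod cation channel, had 12.7, 16.9 and 26.8 CPM at ZT1, against 30.2, 174 and 35.2 CPM at ZT13, and its log2 difference of -2.08 was -0.81 without replicate 2 of ZT13. The mean log2 CPM of the rod list was lower by 1.25 at ZT1 (not past the test, exact permutation p = 0.2), or by 0.51 without that library. Inner retina neuron genes summed to 804 to 996.5 CPM at ZT1, against 837 to 2767 CPM at ZT13, and cone genes to 40.1 to 69.7 CPM at ZT1, against 56.1 to 350 CPM at ZT13. The mean log2 CPM was lower by 0.97 at ZT1 for inner retina neurons and by 1.07 for cones, neither of which passed an exact permutation test (p = 0.2 each), and without replicate 2 of ZT13 by 0.33 and 0.36. Of 16 genes of Muller glia and astrocytes 8 were higher and 8 lower at ZT1 (median log2 difference 0.02), with a summed level of 3880 to 4783 CPM at ZT1, against 4195 to 4853 CPM at ZT13. Lens genes were high in replicate 1 of ZT13 (summed level 483 to 908 CPM at ZT1, against 436 to 8764 CPM at ZT13). Skeletal muscle genes varied within both time points (18952 to 81416 CPM at ZT1, against 12570.5 to 63975 CPM at ZT13, exact permutation p = 1), as did adipocyte genes (364 to 1002 CPM at ZT1, against 256 to 1063 CPM at ZT13). Cornea and epidermis genes summed to 15880 to 22480 CPM at ZT1, against 14408 to 21496 CPM at ZT13. Krt12, a keratin of the cornea, was at 3437 to 4855 CPM at ZT1, against 3093 to 4873 CPM at ZT13. Ttn, of muscle, was at 14068 to 59510 CPM at ZT1, against 9618 to 48741 CPM at ZT13. Both were above Rpe65 in every library. Gnat1, Cryaa, Mip and Acta1 were above 0 in every library. The part of these cell types in the clock values and in those of epithelial genes was not tested. Without replicate 2 of ZT13 the log2 difference was -1.98 for Per2, 1.82 for Npas2, 1.84 for Arntl and -0.12 for Rorb, and with it -1.84 for Per2, 1.85 for Npas2, 0.84 for Arntl and -1.53 for Rorb.

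**Figure D5:**
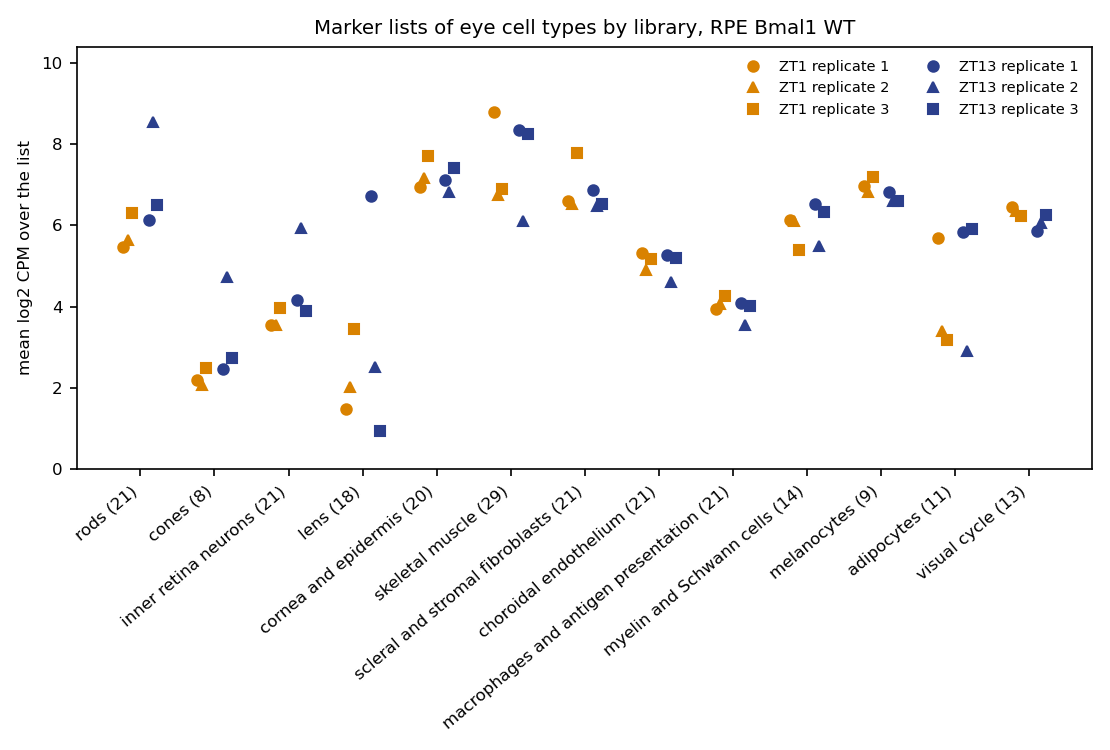
Mean log2 CPM (prior count 2), on the y axis, of 12 marker lists of other eye cells and of the visual cycle list, along the x axis, in each RPE Bmal1 WT library. Colors give the time point and shapes the replicate. Replicate 2 of ZT13 is the highest for rods (8.55), cones (4.72) and inner retina neurons (5.93), and replicate 1 of ZT13 for lens (6.72).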

How the data were processed

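Total RNA libraries were aligned by the authors to mm10 with Bowtie2 and uniquely mapped reads were counted per gene with HTSeq (versions 2.3.4 and 0.9.1 in the submitters' processing notes). The deposited values are whole-number counts without normalization, 1 column per library. The filters on photoreceptor and choroid genes, the CPM and FPKM and the analysis of variance in the study's methods came after this table and are not applied in it. Besides the sample columns, 11 further columns, with values in 30 rows, were not used. The strand setting of the counting is not given in the sources used here.

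Of 53700 gene identifiers, 52147 matched GENCODE mouse release 21 (GRCm38) and 1553 did not. The unmatched identifiers held 3.95% to 17.0% of the counts of the 6 libraries, and only autosomal genes were tested. Genes were kept by filterByExpr with a minimum count of 10 in the libraries of each fit, scaled by TMM and tested with the quasi-likelihood F-test of edgeR 4.0.16 in R 4.3.3, with Benjamini-Hochberg adjustment over all genes tested. Levels are TMM-scaled CPM from the fit of their own genotype, so genotypes were compared by log2 differences and by the interaction in a fit of 12 libraries. Mean log2 CPM (prior count 2) of the marker lists was compared by two-sided exact permutation, over 45 lists, with Benjamini-Hochberg adjusted p of 0.643 or more. The procedure was tested on simulated counts. Promoters came from RefSeq (GRCm38.p6).

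The comparison and the gene lists, written by hand from general knowledge, were chosen with earlier results of these data known. Genes named were the tested members of the clock lists, those of outer segment uptake, Arntl, Drd2 and Dio2, and in each direction 10 protein-coding genes without overlap, with a mean of at least 1 CPM and a symbol that is no clone or predicted name, ranked by log2 difference among genes past the threshold and then by unadjusted p. As no gene passed, p ranked all of them. A few genes are not reported here. Further genes are said to be named after their values were seen.

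The alternatives were other scalings and filters, DESeq2 1.42.0, limma-trend (limma 3.58.1), a linear model on unlogged CPM, fits with 12 or 24 libraries, all chromosomes, protein-coding genes alone, removal of the rod, cone and endothelium lists, replicate numbers entered as a block, and fits without each library. The fit over both genotypes and its alternatives were added after the data were seen.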

Additional observations from a re-analysis of the deposited data

How the results depend on the processing

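The 0 calls of edgeR in RPE Bmal1 WT became 268 (10 higher and 258 lower at ZT1) when genes of low counts were kept and 4 with DESeq2, and stayed 0 under each other alternative, including the replicate block and each left-out library (0 to 0). Of the 268, 253 were genes of the filtered fit, 82 of these without overlap, 10 were clock genes and 38 belonged to the rod, cone, inner retina or lens lists. The cause was not tested. In RPE Bmal1 KO, DESeq2 called 33, limma-trend, median-of-ratios scaling and the block 0, and leaving out libraries gave 0 to 5 (5 without replicate 1 of ZT1). The genotype difference gave 0 under every alternative run. Over both genotypes, DESeq2 called 46, limma-trend 6, median-of-ratios scaling 1 and the replicate block 0, and leaving out libraries gave 0 to 5, with 5 without RPE Bmal1 WT ZT1 replicate 1, 4 without RPE Bmal1 WT ZT13 replicate 2 and 0 without most others.

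Of the log2 differences of named genes, 6 changed sign, in 5 genes, when single libraries were left out. The values then ran from -0.33 (without ZT1 replicate 3) to 1.19 for Dio2, from -0.36 to 0.0409 (without ZT13 replicate 1) for Axl, from -0.53 to 0.059 (without ZT1 replicate 2) for Cry1, from -0.28 to 0.0405 (without ZT1 replicate 2, and 0.00237 without ZT13 replicate 2) for Hlf, and from -0.00882 (without ZT13 replicate 1) to 0.21 for Mertk. In 25 cases a named gene passed the threshold under an alternative, and in 1701 it kept its sign and its side of the threshold. The mean of the lens list, lower by 1.08 at ZT1, was 0.59 higher without ZT13 replicate 1. That of the stromal fibroblast list, 0.34, was -0.06 without ZT1 replicate 3. The means of other marker lists, such as cornea and epidermis and skeletal muscle, also changed sign when single libraries were left out. The median log2 difference of all genes was between -0.03 and 0.04 under every alternative.

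Whether the replicate numbers pair the mice is not given in the sources used here. Deviations of same-numbered libraries from their group means correlated at 0.21, 0.078 and -0.39. Deviations from a mean of 3 libraries depend on each other, so these values cannot decide it. In RPE Bmal1 WT the fit with replicate numbers as a block called 0 genes. With 3 mice a time point and 5424024 to 10550207 counts a library, edgeR did not call large differences either. The log2 differences of -2.04 for Dbp and 3.65 for Tmprss3 had adjusted p = 0.9996 each in edgeR. The absence of calls therefore does not show that the time points were alike. The parts of sex and of cell makeup were not tested.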
